A study of Mus musculus with 7 samples.

Results

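Insulin-like growth factor (IGF) binding proteins, their ligands Igf1 and Igf2 and the receptor gene Igf1r were examined in RNA-seq libraries of the retinal pigment epithelium (RPE). This single layer of pigmented cells supports the photoreceptors. The 9 genes, Igfbp2 to Igfbp7, Igf1, Igf2 and Igf1r, were taken by symbol from a table of 21861 rows, and all 9 were present. Igfbp2 was chosen by its counts in these libraries, for being lower with AAV-GSTA4 than with AAV-GFP, so its difference between the groups is described here and not tested. The other 8 genes were taken as its family, the ligands and the receptor. The tissue came from aged mice 12 weeks after treatment with an adeno-associated virus (AAV) vector that carried GFP (3 libraries) or GSTA4 (4 libraries), a glutathione transferase that conjugates lipid aldehydes. Every library thus came from aged, vector-treated mice, and no untreated or young mice enter the comparison. The labels used here do not give the strain, the exact age, the sex, the promoter of the vectors or whether animals were pooled, so p-values measure the spread between these libraries.

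IGF1 and IGF2 are secreted peptides that act mainly through the IGF1 receptor, a tyrosine kinase that signals through IRS adaptors to PI3K, AKT and mTOR. Most IGF in tissue fluid is held by the binding proteins, which limit or prolong access to the receptor and are released from the ligand when proteases cut them. In the eye the RPE and the choroid behind it lie in the path of growth factors that pass between the choroidal vessels and the photoreceptors.

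Igfbp2 and Igfbp5 are neighbours. On mouse build GRCm38, Igfbp2 (ENSMUSG00000039323.18) lies on the forward strand of chromosome 1 from 72824503 to 72852474, and Igfbp5 (ENSMUSG00000026185.8) lies on the reverse strand from 72857932 to 72874884, so that their 3′ ends face each other across 5458 bases. Igfbp4 (ENSMUSG00000017493.12) lies on the forward strand of chromosome 11 from 99041244 to 99054392. The 150 bases before the RefSeq start site of these 3 genes are shown because Igfbp2 and Igfbp4 were the members whose groups separated, and Igfbp5 is the neighbour of Igfbp2 whose groups overlapped. Each is written 5′ to 3′ on the gene's own strand from RefSeq (GRCm38.p6), with the GC box GGGCGG and the TATA box TATAAA (either strand) in capitals.
Igfbp2, chr1:72824330-72824479: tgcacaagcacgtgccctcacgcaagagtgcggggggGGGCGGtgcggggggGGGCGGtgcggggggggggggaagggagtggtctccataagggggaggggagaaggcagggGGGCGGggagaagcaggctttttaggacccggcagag
Igfbp5, chr1:72874866-72875015: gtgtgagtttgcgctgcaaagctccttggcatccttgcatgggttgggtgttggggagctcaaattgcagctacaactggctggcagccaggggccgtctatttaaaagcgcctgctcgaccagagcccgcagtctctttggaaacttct
Igfbp4, chr11:99041094-99041243: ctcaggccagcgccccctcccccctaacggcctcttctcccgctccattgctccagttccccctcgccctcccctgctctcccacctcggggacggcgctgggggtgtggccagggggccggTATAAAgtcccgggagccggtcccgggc

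The stretches differ in composition and in the letters searched. The Igfbp2 stretch held 3 GC boxes and no TATA box, the Igfbp4 stretch held 1 TATA box and no GC box, and the Igfbp5 stretch held neither. G and C made up 72.0% of the bases for Igfbp2, 73.3% for Igfbp4 and 55.3% for Igfbp5. Over all 32841 windows of 300 bases in the promoter table, 35.7% held a GC box and 13.6% a TATA box. In the members' own windows of 300 bases, GC boxes were found for Igfbp2 (3), Igfbp7 (4) and Igf1r (2). A TATA box was found there for Igfbp4 (1) and Igfbp6 (1). An E-box, CACGTG, was found 1 time in the 300-base window of Igfbp2 and in no other member's window, where 7.15% of all windows held it. The core of the antioxidant response element, TGACNNNGC, was found in none of the 9 members' windows, where 12.4% of all windows held it. These are matches of letters in these windows only.

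The libraries held 15329181 to 28998964 counts, so the floor of 3 counts corresponded to 0.111 to 0.176 CPM (read counts scaled to library size), with library sizes adjusted by the trimmed mean of M-values (TMM). AAV-GFP replicate 3 stood apart, with a mean correlation of 0.838 with the other libraries, against 0.910 to 0.926 for each of the other 6, and the values of the members that it moved most are given with and without it. Its TMM factor was 1.36, against 0.868 to 1.05 in the other 6, which lowers its CPM values relative to library totals. The RPE marker Rpe65 was at 1767 to 9210 CPM in AAV-GFP and 5983 to 11831 CPM in AAV-GSTA4, lowest in AAV-GFP replicate 3. The 22 RPE markers summed to 26530 to 78405 CPM in AAV-GFP and 67552 to 120117 CPM in AAV-GSTA4, with overlap. Of these markers 17 had a log2 fold change above 0 and 5 below. The RPE sum was lowest in AAV-GFP replicate 3. Its 21 rod markers summed to 50040 CPM, the highest of all libraries, and only in that library did the rod sum exceed the RPE sum. In bulk RNA of this kind, fewer cells of a type and less RNA per cell cannot be told apart.

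Igfbp2 encodes a secreted binding protein that also attaches to integrins and to heparan sulphate at the cell surface. It was at 50.9, 52.3 and 43.9 CPM in AAV-GFP replicates 1 to 3. In AAV-GSTA4 replicates 1 to 4 it was at 26.2, 15.8, 20.2 and 33.0 CPM. Every AAV-GSTA4 library lay below every AAV-GFP library, and replicate 4 came closest. AAV-GFP averaged 49.1 CPM ± 4.49 (SD, n = 3) against 23.8 CPM ± 7.48 (SD, n = 4) in AAV-GSTA4, which is a log2 difference of -1.04 ± 0.27 (SE), or 2.06-fold lower. Of all 15075 genes tested, 5.61% lay wholly lower in AAV-GSTA4 in this way, a share from which nothing is read for Igfbp2 because the gene was chosen for this difference. Without AAV-GFP replicate 3 the log2 fold change of Igfbp2 was -1.12 ± 0.28 (SE). On library totals that library held the highest Igfbp2, at 59.7 CPM, and the groups still did not overlap (50.3 CPM or more against 30.9 or less).

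The vector transcripts check the labels. A row for a destabilised GFP stood at 4.61, 153 and 113 CPM in AAV-GFP and at 8.58, 3.07, 0.411 and 0.959 CPM in AAV-GSTA4, so the library labelled AAV-GFP replicate 1 held less of it than AAV-GSTA4 replicate 1. Without that AAV-GFP library the log2 difference of Igfbp2 was -1.01 ± 0.31 (SE). The human GSTA4 row stood at 222, 251, 2.65 and 43.7 CPM in AAV-GSTA4 and at 0.140 CPM or less in every AAV-GFP library. Igfbp2 in the library with the least transgene RNA, replicate 3, was at 20.2 CPM, between the values of replicates 1 and 2 that had the most. Transcripts of Y-linked genes summed to more than 10 CPM in AAV-GFP replicate 1 and AAV-GSTA4 replicates 3 and 4, and to 2.83 CPM or less elsewhere. With this class as a covariate the log2 fold change of Igfbp2 was -1.09 ± 0.28 (SE). The part of these transcripts in the Igfbp2 values was not tested. Among libraries above 10 CPM, Igfbp2 was at 50.9 CPM in the 1 AAV-GFP library against 20.2 to 33.0 CPM in AAV-GSTA4 (2 libraries). In the others Igfbp2 was at 43.9 to 52.3 CPM against 15.8 to 26.2 CPM, with 2 libraries in each group. That order is fixed for any split by the separation of the whole groups.

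**Figure D1:**
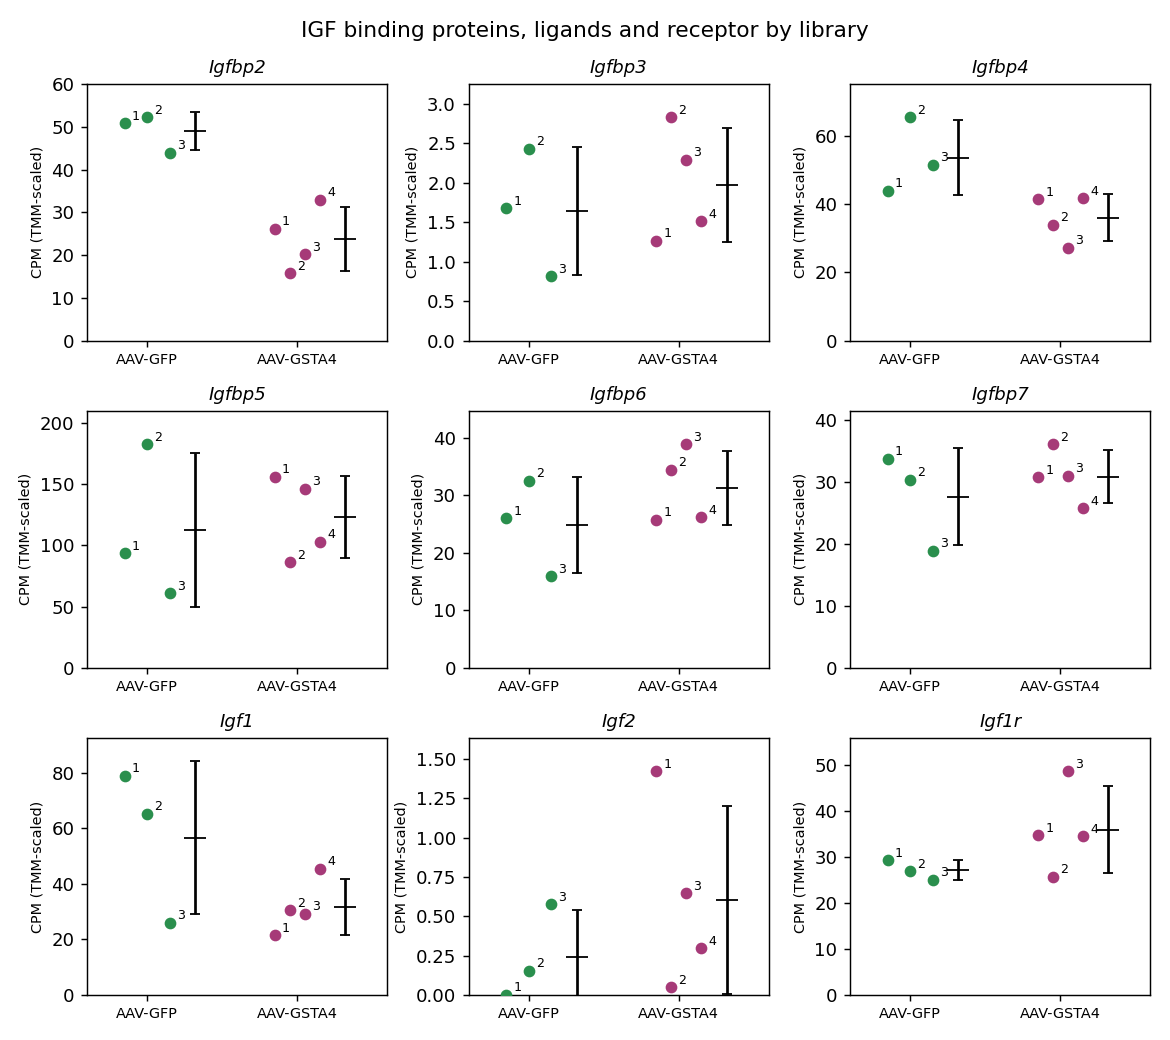
TMM-scaled CPM of each of the 9 genes, with 1 point per library numbered by replicate, and the mean and SD of each group beside the points (3 AAV-GFP and 4 AAV-GSTA4 libraries; bars of Igf2 are cut at 0). The groups separate for Igfbp2 (43.9 CPM or more against 33.0 or less) and narrowly for Igfbp4 (44.0 or more against 41.7 or less) and overlap for the other 7 genes.

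Igfbp4 encodes a binding protein that is cut by the protease pregnancy-associated plasma protein A (Pappa). It was at 44.0, 65.6 and 51.5 CPM in AAV-GFP and at 41.4, 33.9, 27.2 and 41.7 CPM in AAV-GSTA4. The groups did not overlap, but AAV-GFP replicate 1 was within 3 CPM of AAV-GSTA4 replicates 1 and 4. AAV-GFP averaged 53.7 CPM ± 10.95 (SD, n = 3) against 36.1 CPM ± 6.95 (SD, n = 4) in AAV-GSTA4, which is a log2 difference of -0.57 ± 0.24 (SE; 95% interval -1.10 to -0.05). The unadjusted p was 0.0358 and the Benjamini-Hochberg adjusted p over all genes was 0.393 in edgeR's quasi-likelihood test, so Igfbp4 did not pass. The log2 difference was -0.61 without AAV-GFP replicate 3 and -0.40 without AAV-GFP replicate 2, the library in which it was highest.

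Igfbp5 encodes a binding protein that is held in the extracellular matrix. It was at 93.4, 183 and 60.8 CPM in AAV-GFP and at 156, 86.2, 146 and 103 CPM in AAV-GSTA4. The AAV-GFP libraries alone covered more than the whole range of AAV-GSTA4. The log2 fold change was 0.13 ± 0.38 (SE; 95% interval -0.71 to 0.97), with an adjusted p of 0.915 in edgeR's test, and it became -0.17 without AAV-GFP replicate 3 and -0.11 with library totals in place of TMM. Igfbp2 and Igfbp5 thus had different patterns over the 7 libraries, although they are neighbours on the chromosome: the count ratio of Igfbp2 to Igfbp5 was 0.287 to 0.723 in AAV-GFP and 0.138 to 0.320 in AAV-GSTA4.

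Igfbp6, whose protein prefers IGF2 over IGF1, was at 26.0, 32.5 and 15.9 CPM in AAV-GFP and at 25.7, 34.5, 38.8 and 26.1 CPM in AAV-GSTA4. The log2 difference was 0.34 ± 0.29 (SE; 95% interval -0.32 to 0.99; adjusted p = 0.664 in edgeR's test). For Igfbp6 it was 0.099 without AAV-GFP replicate 3, 0.072 with library totals and 0.034 in limma-voom. Igfbp7, whose product binds IGFs weakly and is deposited around blood vessels, was at 33.6, 30.3 and 18.8 CPM in AAV-GFP and at 30.7, 36.0, 30.9 and 25.7 CPM in AAV-GSTA4. In both genes AAV-GFP replicate 3 was the lowest of all 7 libraries and the groups overlapped. The log2 fold change of Igfbp7 was 0.16 ± 0.26 (SE; 95% interval -0.41 to 0.73; adjusted p = 0.832 in edgeR's test), and it was -0.05 without that library. Igfbp7 shares a short stretch at its 3′ end with Polr2b on the opposite strand, and the strand setting of the counting is not given in the sources used here.

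Igfbp3, the main carrier of IGFs in blood, had only 17 to 63 counts per library. It was at 1.68, 2.43 and 0.816 CPM in AAV-GFP and at 1.26, 2.83, 2.29 and 1.51 CPM in AAV-GSTA4. The groups overlapped, and the 95% interval of the log2 fold change of 0.26 ± 0.65 (SE) ran from -1.19 to 1.71 (adjusted p = 0.899 in edgeR's test). With this interval, which includes the spread between libraries, a change of Igfbp3 by a factor of 2 in either direction was not distinguishable from none. Igfbp1, the remaining classical binding protein, had 0 to 8 counts per library and was not tested.

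Igf1, the ligand made in the liver and locally by stromal and myeloid cells, was at 78.8, 65.1 and 25.98 CPM in AAV-GFP and at 21.4, 30.4, 29.1 and 45.3 CPM in AAV-GSTA4. AAV-GFP replicates 1 and 2 were the highest of all libraries, whereas replicate 3 lay within the AAV-GSTA4 range. AAV-GFP averaged 56.6 CPM ± 27.4 (SD, n = 3) against 31.6 CPM ± 9.97 (SD, n = 4) in AAV-GSTA4, which is a log2 difference of -0.84 ± 0.38 (SE; 95% interval -1.69 to 0.01). The unadjusted p was 0.0516 and the adjusted p 0.425 in edgeR's test, so Igf1 did not pass. Without AAV-GFP replicate 1, the library in which it was highest, the log2 fold change of Igf1 was -0.53 ± 0.41 (SE) with an adjusted p of 0.587 in edgeR's test. Without AAV-GFP replicate 3 it was -1.18 ± 0.27 (SE) with an adjusted p of 0.313 in the same test. With the mean log2 CPM of the rod genes as a covariate the value for Igf1 was -1.87 ± 0.33 (SE), with an adjusted p of 0.296 in edgeR's test. The rod marker sums did not overlap between the groups, so that fit cannot fully tell rod level and group apart.

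Marker sums of cells that can carry Igf1 stood beside it as follows. The 15 fibroblast and stroma markers summed to 1236, 942 and 302 CPM in AAV-GFP and to 519, 595, 593 and 838 CPM in AAV-GSTA4. The 15 macrophage and microglia markers summed to 3718, 2898 and 1234 CPM in AAV-GFP and to 1618, 2311, 2408 and 3580 CPM in AAV-GSTA4. Igf1 was highest in AAV-GFP replicate 1, as were both sums, and within AAV-GSTA4 all 3 were highest in replicate 4. Other libraries were ordered differently. The macrophage sum was larger in AAV-GSTA4 replicate 4 than in AAV-GFP replicate 2, whereas Igf1 was lower (45.3 against 65.1 CPM). Both sums were lowest in AAV-GFP replicate 3, whereas Igf1 was lowest in AAV-GSTA4 replicate 1 (21.4 against 25.98 CPM). No stromal or macrophage marker was at 0 in any library, 9 of 15 and 14 of 15 had a log2 fold change below 0, and their part in the Igf1 values was not tested. Csf1r, the exception among the macrophage markers, was at 127 to 258 CPM in AAV-GFP and at 291 to 568 CPM in AAV-GSTA4.

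Igf2, a paternally expressed growth factor, had 0, 4 and 12 counts in AAV-GFP and 27, 1, 11 and 8 counts in AAV-GSTA4, with 5 of the 7 libraries above the floor of 3 counts. Its log2 fold change of 1.29 ± 1.41 (SE; adjusted p = 0.739 in edgeR's test) had a 95% interval from -1.87 to 4.45, and it ran from 0.72 to 2.80 with 1 library left out. Gm49394, an annotated model on the same strand that overlaps Igf2 along nearly its whole length, had 0 counts in every library. The treatment of reads shared by overlapping genes is not given in the sources used here, so the Igf2 count is not read as a measure of its RNA.

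Igf1r, the receptor, was at 29.3, 26.9 and 25.0 CPM in AAV-GFP and at 34.7, 25.7, 48.6 and 34.5 CPM in AAV-GSTA4. Of the AAV-GSTA4 libraries 3 lay above all AAV-GFP libraries, and replicate 2 lay among them. AAV-GFP averaged 27.1 CPM ± 2.15 (SD, n = 3) against 35.9 CPM ± 9.46 (SD, n = 4) in AAV-GSTA4, and the log2 difference of 0.41 ± 0.25 (SE; 95% interval -0.15 to 0.96) had an adjusted p of 0.532 in edgeR's test. The value for Igf1r was 0.23 without AAV-GSTA4 replicate 3, the library in which it was highest, and 0.11 with library totals. Igf1r passed at no alternative setting, with adjusted p-values from 0.299 to 0.934 over edgeR, DESeq2 and limma-voom.

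Levels per length placed the members in order. CPM values were divided by the exonic length in GENCODE M21, from 1.11 kb for Igfbp6 to 16.8 kb for Igf1r, which includes every annotated exon and so lowers the value of genes with long alternative ends. In AAV-GFP the level was 26.6 CPM per kb ± 2.43 (SD, n = 3) for Igfbp2, 22.8 ± 6.43 for Igfbp7, 22.3 ± 7.51 for Igfbp6 and 18.7 ± 10.5 for Igfbp5, and these 4 did not differ beyond their spread. Igfbp4 followed at 12.2 CPM per kb ± 2.48, Igf1 at 5.72 ± 2.77, Igf1r at 1.61 ± 0.13, Igfbp3 at 0.525 ± 0.26 and Igf2 at 0.0426 ± 0.052.

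In AAV-GSTA4 the order was as follows. Igfbp6 was at 28.1 CPM per kb ± 5.80 (SD, n = 4), Igfbp7 at 25.5 ± 3.49 and Igfbp5 at 20.5 ± 5.61, whereas Igfbp2 was at 12.9 ± 4.05 and Igfbp4 at 8.16 ± 1.57. Igf1 at 3.19 CPM per kb ± 1.01 and Igf1r at 2.14 ± 0.56 overlapped in range, and Igfbp3 stood at 0.631 ± 0.23. Ranked within a library per length, with 1 the highest of the 6 binding proteins, Igfbp2 had ranks 2, 3 and 1 in AAV-GFP and ranks 4, 4, 4 and 3 in AAV-GSTA4. Igfbp3 was the lowest of the 6 in all 7 libraries.

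The share of Igfbp2 among the counts on the 6 binding proteins does not depend on how libraries are scaled. It was 20.4%, 14.3% and 22.9% in AAV-GFP and 9.29%, 7.55%, 7.59% and 14.3% in AAV-GSTA4. The lowest AAV-GFP library, replicate 2, and the highest AAV-GSTA4 library, replicate 4, could not be told apart by counting error, with 95% Wilson intervals of 13.62% to 15.03% and 13.4% to 15.2%. Igfbp5 held the largest share, 31.7% to 49.9% in AAV-GFP and 41.2% to 55.5% in AAV-GSTA4, and the high Igfbp5 of AAV-GFP replicate 2 went with its low Igfbp2 share. Summed over the 6 genes, binding protein RNA was 192 to 366 CPM in AAV-GFP and 209 to 282 CPM in AAV-GSTA4, ranges that overlapped.

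**Figure D2:**
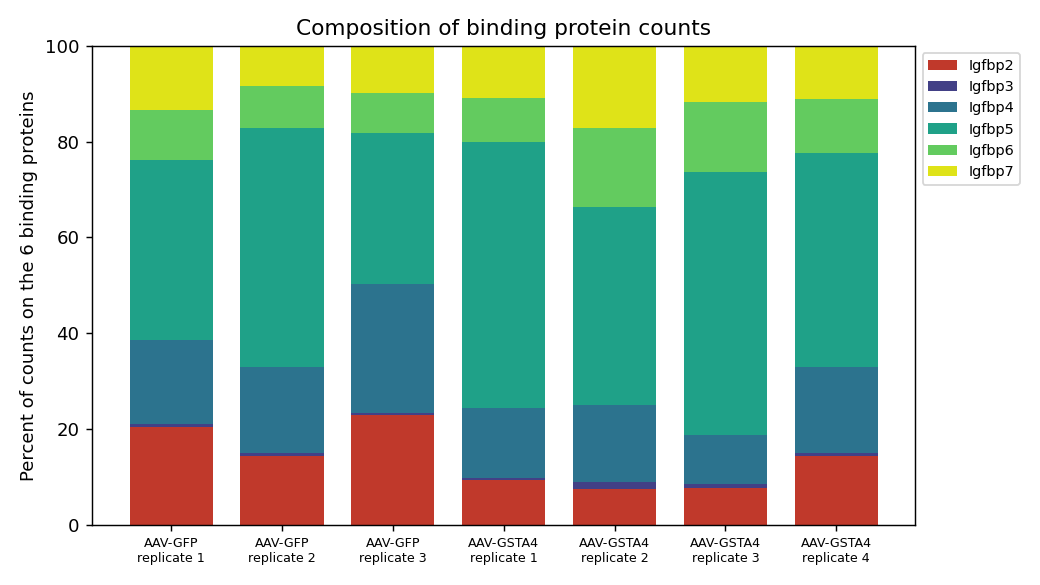
Stacked bars of the percent of counts on Igfbp2 to Igfbp7, of the counts on those 6 genes together, for each of the 7 libraries. The lowest segment, Igfbp2, covers 14.3% to 22.9% in AAV-GFP and 7.55% to 14.3% in AAV-GSTA4, and Igfbp5 is the largest segment in every library.

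Over the 8 members other than Igfbp2, 0 passed an adjusted p of 0.05 in edgeR's test, where 0% of all 15075 genes passed. At an unadjusted p under 0.05 there was 1, Igfbp4, where 11.9% of all genes had such a value, 6.63% lower and 5.27% higher in AAV-GSTA4. DESeq2 and limma-voom also passed 0 of the 8. DESeq2 gave no adjusted p to Igfbp3 and Igf2, and it passed 1.75% of the genes to which it gave one. Groups that did not overlap were found for 1 of the 8, Igfbp4, where 12.0% of all genes had such groups, 5.61% lower and 6.44% higher in AAV-GSTA4. Without AAV-GFP replicate 3 this held for 2 of the 8, Igfbp4 and Igf1, where 24.2% of all genes did. These shares are close to the background.

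Directions among the members depended in part on scaling. The median of the log2 fold changes over all genes was -0.07 after TMM and -0.37 on library totals. Relative to that median, Igfbp2 stood at -0.97 with TMM and -0.95 with library totals, Igfbp4 at -0.50 and -0.50, and Igf1 at -0.77 and -0.69. The median over the 8 members other than Igfbp2 was 0.21 with TMM, with 2 of 8 below 0, and -0.04 with library totals, with 4 of 8 below 0. Without AAV-GFP replicate 3 it was -0.05, with 5 of 8 below 0.

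**Figure D3:**
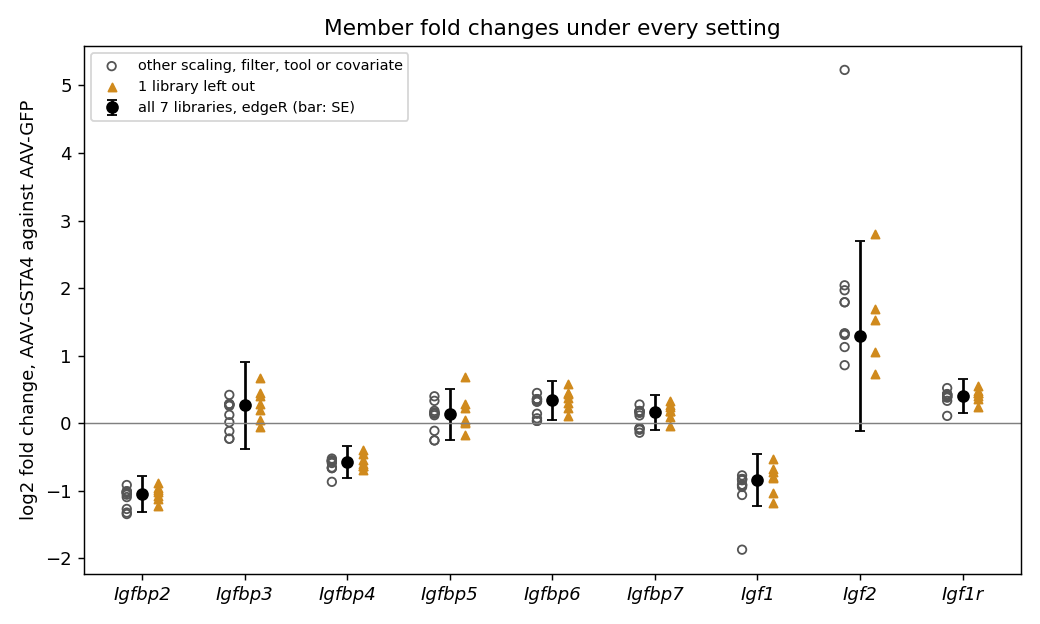
Log2 difference (AAV-GSTA4 minus AAV-GFP) for the 9 genes, with the edgeR value from all 7 libraries and its SE (filled circles), the values under other scalings, filters, tools and covariates (open circles) and those with 1 library left out (triangles). Igfbp2, Igfbp4 and Igf1 lie below 0 at every setting, Igfbp3, Igfbp5 and Igfbp7 cross 0, and Igf2 spans the widest range.

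The genes around the family were read from a list of 90 symbols. Of these, 84 were in the table (5 of the others are older symbols of genes also listed under their current ones), and 76 were tested. In edgeR's test 0 of the 76 passed an adjusted p of 0.05, while 15 had an unadjusted p under 0.05, 6 higher and 9 lower in AAV-GSTA4. That is 19.7% of the 76, beside 11.9% of all genes. The median log2 fold change was -0.06, beside -0.07 for all genes, and 44 of the 76 were below 0, or 57.9% beside 55.4%. Groups did not overlap for 11, 6 higher and 5 lower, or 14.5%, beside 12.0% of all genes. Without AAV-GFP replicate 3 they did not overlap for 17 of 77, or 22.1%, beside 24.2%.

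Proteases that cut the binding proteins, and their inhibitors, had the lowest median of the lists when all 7 libraries were used. Of 9 tested, 7 were below 0, or 77.8% beside 55.4% of all genes. Their median log2 fold change was -1.01, which became -0.42 without AAV-GFP replicate 3. It was then no longer the lowest, as the growth hormone axis and IGF mRNA list had a median of -0.43. Htra1, a secreted serine protease that can cut IGF binding proteins, was at 22.3, 27.1 and 33.2 CPM in AAV-GFP and at 15.3, 19.4, 6.46 and 11.5 CPM in AAV-GSTA4, so the groups did not overlap. The log2 difference was -1.07 ± 0.36 (SE; adjusted p = 0.363 in edgeR's test). Pappa, which cuts IGFBP4, was low throughout, at 0.528 to 2.47 CPM in AAV-GFP and 0.0588 to 1.34 CPM in AAV-GSTA4, and the groups overlapped. Adam9, a membrane metalloprotease, went the other way, at 76.2 CPM ± 10.4 (SD, n = 3) in AAV-GFP against 115 CPM ± 13.4 (SD, n = 4) in AAV-GSTA4, with no overlap and a log2 fold change of 0.60 ± 0.20 (SE; adjusted p = 0.370 in edgeR's test).

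The ligands, receptors and clearance genes of the insulin family formed a list with 7 genes tested. Of these, 5 were above 0 and 2 below, or 28.6% below 0 beside 55.4% of all genes. The median log2 fold change was 0.34, and it was 0.06 with library totals. Groups did not overlap for 3 of the 7, or 42.9%, beside 12.0% of all genes. The insulin receptor gene Insr was at 23.7, 27.1 and 24.6 CPM in AAV-GFP and at 22.7, 34.3, 39.5 and 30.6 CPM in AAV-GSTA4, and Igf2r, the receptor that carries IGF2 to lysosomes, was at 8.77 to 32.3 CPM and 11.5 to 17.9 CPM. Both overlapped between groups, with adjusted p-values of 0.585 and 0.737 in edgeR's test.

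The endocytic receptor Lrp1 separated the groups, at 202, 201 and 215 CPM in AAV-GFP and 474, 299, 645 and 535 CPM in AAV-GSTA4, a log2 fold change of 1.25 ± 0.29 (SE; adjusted p = 0.363 in edgeR's test). Sorl1, a sorting receptor of the same broad family, was at 84.7 CPM ± 16.0 (SD, n = 3) in AAV-GFP against 160 CPM ± 40.4 (SD, n = 4) in AAV-GSTA4. The log2 difference was 0.92 ± 0.27 (SE; adjusted p = 0.363 in edgeR's test), and its groups did not overlap. DESeq2 passed Lrp1 but not Sorl1 of these. The insulin gene Ins2 also had groups that did not overlap, at 15.8, 15.5 and 4.90 CPM against 18.7, 16.4, 28.2 and 24.6 CPM, and was singled out after its values were seen (adjusted p = 0.444 in edgeR's test).

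Intracellular genes downstream of the receptor were divided. Among 18 adaptors and feedback genes 9 were below and 9 above 0, and among 23 PI3K, AKT and growth effectors 14 were below 0, with medians of -0.02 and -0.03. The adaptor gene Crk was lower without overlap, at 73.3 CPM ± 4.10 (SD, n = 3) in AAV-GFP against 45.0 CPM ± 4.91 (SD, n = 4) in AAV-GSTA4, as was Pik3ca, a catalytic subunit of PI3K, at 40.5 CPM ± 6.47 (SD, n = 3) in AAV-GFP against 27.1 CPM ± 2.39 (SD, n = 4) in AAV-GSTA4. Mtor, the kinase at the end of the pathway, was higher without overlap, at 62.2, 55.9 and 77.4 CPM in AAV-GFP and 122, 94.3, 119 and 97.6 CPM in AAV-GSTA4. Tsc2, an inhibitor of the mTOR complex, was also higher without overlap, at 53.5 CPM ± 4.76 (SD, n = 3) in AAV-GFP against 72.7 CPM ± 13.0 (SD, n = 4) in AAV-GSTA4. None of these 4 passed, with adjusted p-values of 0.363 to 0.436 in edgeR's test.

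In each of the remaining lists 1 gene had groups that did not overlap. That is 10% of the relatives and partners and 11.1% of the growth hormone and IGF mRNA genes, beside 12.0% of all genes. Of 10 tested relatives and partners of the binding proteins 6 were below 0, and Kazald1, which encodes a secreted protein with an IGF-binding-like domain, was at 8.62 CPM ± 0.699 (SD, n = 3) in AAV-GFP against 6.92 CPM ± 0.593 (SD, n = 4) in AAV-GSTA4 without overlap (adjusted p = 0.690 in edgeR's test). Of 9 genes of the growth hormone axis and of IGF mRNA control 6 were below 0. Among them Plagl1, an imprinted transcription factor gene, was at 12.1 CPM ± 1.64 (SD, n = 3) in AAV-GFP against 6.74 CPM ± 1.92 (SD, n = 4) in AAV-GSTA4 without overlap (adjusted p = 0.383 in edgeR's test).

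**Figure D4:**
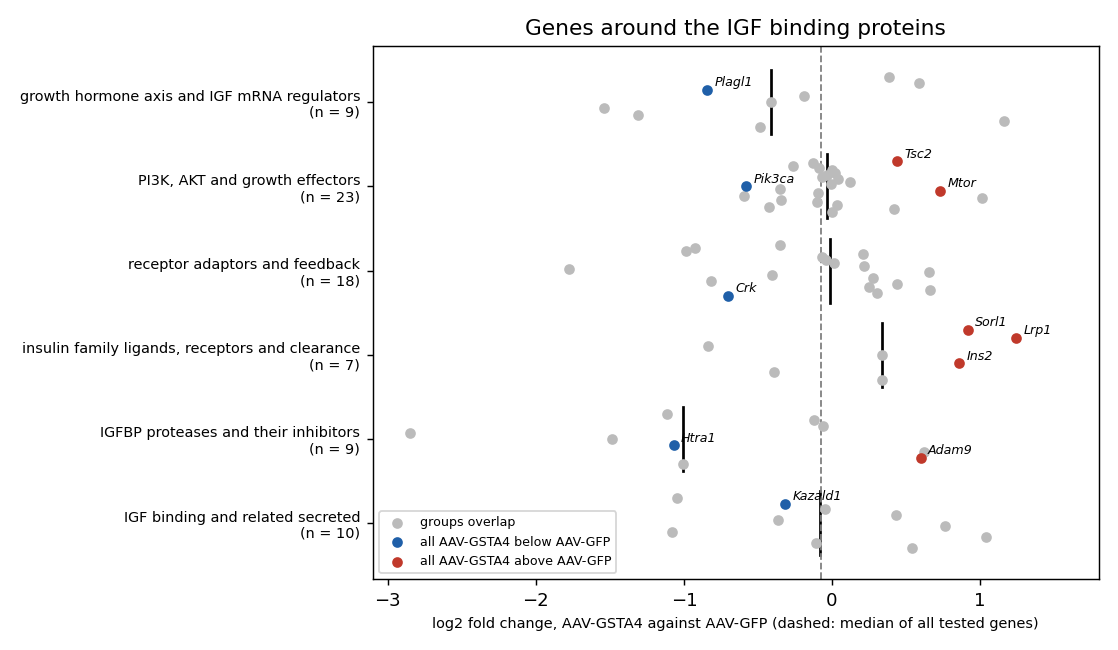
Log2 difference (AAV-GSTA4 minus AAV-GFP) for the 76 tested genes around the family, by list, with the median of each list as a black bar and the median of all tested genes, -0.07, as a dashed line. Coloured points are the 11 genes whose groups did not overlap (5 lower in blue, 6 higher in red), and they fall on both sides of 0.

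The genes whose pattern was most like that of Igfbp2 were sought among 11109 other genes whose mean log2 CPM was 2 or more, by Pearson correlation of log2 CPM over the 7 libraries. The 5 highest were Dusp14 (r = 0.987), a phosphatase gene, Lmo4 (0.986), a LIM-domain cofactor gene, Ttll1 (0.986), Gnb4 (0.968), a G protein subunit gene, and Hes1 (0.968), a Notch target. All 5 separated the groups in the same direction as Igfbp2, which follows from the search, as does the order of the libraries. They differed in how far they moved: Lmo4 was at 36.3, 37.4 and 32.9 CPM and then 24.4, 17.4, 19.2 and 31.1 CPM, whereas Ttll1 was at 48.5 to 50.8 CPM and then 43.2 to 47.2 CPM. Among the members, the correlation with Igfbp2 over the 7 libraries was 0.83 for Igfbp4 and 0.64 for Igf1, and it was between -0.52 and -0.04 for the other 6. With both groups pooled, these values follow in part from the group difference for which Igfbp2 was chosen. No shared regulation is read from them.

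Marker sums of other cell types stood beside Igfbp2 as follows. The 21 rod markers summed to 19715 to 50040 CPM in AAV-GFP and 11082 to 18815 CPM in AAV-GSTA4, with 19 of 21 below 0 and no marker at 0 in any library. The rod sums, like Igfbp2, did not overlap between the groups. With the rod score as a covariate the log2 fold change of Igfbp2 was -1.35 ± 0.38 (SE), in a fit that cannot fully tell rod level and group apart. The 15 endothelial markers summed to 177 to 253 CPM and 143 to 215 CPM, the 11 pericyte and smooth muscle markers to 193 to 398 CPM and 329 to 462 CPM, and the 6 melanocyte markers to 183 to 594 CPM and 318 to 412 CPM, all with overlap between groups. The 11 Müller glia and astrocyte markers, of which 1 is also on the RPE list, summed to 7106 to 11485 CPM and 11813 to 18238 CPM, higher in AAV-GSTA4 without overlap, although 6 of the 11 had a log2 fold change below 0. Apoe alone, 1 of the 11, averaged 4480 CPM in AAV-GFP and 7609 CPM in AAV-GSTA4, so the sum is not read as a measure of glia. The 20 lens markers summed to 3945 to 16889 CPM in AAV-GFP and 6203 to 145671 CPM in AAV-GSTA4, with the highest sum in AAV-GSTA4 replicate 2, the library in which Igfbp2 was lowest. All 17 lens markers tested had a log2 fold change above 0. The 10 cone markers summed to 449 to 1107 CPM and 277 to 487 CPM, and the 8 markers of cornea and conjunctiva to 519 to 586 CPM and 66.6 to 587 CPM, with every tested gene of both lists below 0 and with overlap of the sums. The part of rod, lens, cone, corneal, glial and vascular RNA in the Igfbp2 values was not tested. Without AAV-GSTA4 replicate 2 the log2 fold change of Igfbp2 was -0.88 ± 0.25 (SE).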

How the data were processed

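Aged mouse RPE RNA was copied into cDNA with a low-input, full-length kit, amplified, and cut by transposase, per the labels' protocols. The authors deposited raw read counts per gene symbol; STAR 2.7.1a and featureCounts 1.6.2 and the builds GRCm38 and GRCh38 are named, with no roles, per the submitters' processing notes. Strand and multi-mapping settings are not given in the sources used here. No molecular identifiers are mentioned, so the Wilson intervals and the floors cover counting error only. The intervals of the fold changes come from edgeR's fit and include the spread between libraries. The 7 columns were matched to samples by library name, and replicates are numbered by title; 26 extra rows repeat a symbol.

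The count test was edgeR 4.0.16 (R 4.3.3), quasi-likelihood, robust, TMM scaling, default expression filter by group, all 7 libraries, with Benjamini-Hochberg adjustment over all 15075 genes tested and a threshold of 0.05. Standard errors were taken as the log2 fold change over the root of its F statistic. Log2 CPM used a prior count of 2. The test was checked on simulated counts. DESeq2 1.42.0 and limma 3.58.1 were alternatives, as were other scalings, filters, blocks, covariates and left-out libraries. Exonic lengths and positions are from GENCODE M21 (GRCm38); promoters of all 9 members matched RefSeq.

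The members and lists were chosen with earlier results of these data known. Named genes were all members, Igfbp1, Igf2r, Insr and Pappa, up to 5 listed genes per direction with the smallest p among those whose groups did not overlap, the 5 genes most like Igfbp2, and the defining markers Rpe65, Pecam1, Col1a1 and Csf1r; a further marker is not reported here. Pecam1 was at 1.63 to 8.84 CPM and Col1a1 at 2.74 to 13.3 CPM over the libraries. The list also holds Imp3, the symbol of a nucleolar protein gene. Every pair of libraries differed by more than sampling noise (chi-square per gene of at least 57.5).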

Additional observations from a re-analysis of the deposited data

How the results depend on the processing

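The log2 fold change of Igfbp2 kept its direction at all 18 alternatives, from -1.35 to -0.92 and, with 1 library left out, from -1.22 to -0.88. Igfbp4, Igf1, Igfbp6, Igf1r and Igf2 also kept theirs, though with 1 library left out Igf1 ran from -1.18 to -0.53, Igfbp6 from 0.099 to 0.58 and Igf1r from 0.23 to 0.55, and the rod covariate moved Igf2 to 5.23. Igfbp3 was at -0.23 in limma-voom, with or without robust variance, and at -0.12 with the rod covariate, and ran from -0.059 to 0.66 with 1 library left out. Igfbp5 was at -0.11 with library totals and -0.25 in limma-voom, and ran from -0.17 to 0.68. Igfbp7 was at -0.10 with library totals, -0.075 in limma-voom and -0.14 with the rod covariate, and ran from -0.049 to 0.33. The cause was not tested. In edgeR's test with Benjamini-Hochberg adjustment 0 genes passed; DESeq2 passed 199, limma-voom 0 and, with robust variance (chosen after seeing the data), 146. The rod covariate gave 1, and leaving out 1 library gave 0 to 1. Of the surrounding genes DESeq2 passed 1 (Lrp1) and robust limma-voom 3 (Mtor, Lrp1 and Sorl1). None of the 8 members other than Igfbp2 passed at any of these settings. Library totals gave 2400 genes at an unadjusted p under 0.05, 2133 of them lower, against 1794 and 999 with TMM. With a replicate block by title or by library name 1 gene passed, and no member and none of the surrounding genes did. Same-numbered libraries were compared in 3 pairs, too few to decide whether they were paired. Deviations in same-numbered libraries, as distinct from their levels, correlated at -0.09 to 0.01 by title. By library name these deviations correlated at -0.13 to 0.01. Igf2 had no value where 10 counts in every library were required or without AAV-GSTA4 replicate 1 or 3. The counts of Igf2, Igfbp1 and Igfbp3 were low, which limits what can be read from them.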
